A study of Homo sapiens with 6 samples.

Results

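The photoreceptor-lineage transcription factors are the 9 genes OTX2, CRX, NRL, NEUROD1, NR2E3, PRDM1, THRB, RORB and RXRG, taken by symbol from the 60664 genes counted in each library. Polyadenylated RNA of D283 Med cells, an established human medulloblastoma line with MYC amplification, labelled as Group 3, was sequenced in 6 libraries. All cells were transfected with an LNA GapmeR, an antisense oligonucleotide that recruits RNase H to its target. In the 3 control libraries (SCR) the GapmeR was a scrambled sequence, and in the 3 knockdown libraries (KD) it was directed at the long non-coding RNA lncMB3. The dose and the time after transfection were not given in the sources used here. The line models 1 genetic background. Separate cultures per library are not mentioned in the labels, and the tests then rest on library-to-library spread that may be technical. Effects of losing lncMB3 and other effects of its GapmeR cannot be told apart.

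In the retina and pineal gland these factors act as a hierarchy. OTX2 commits progenitors to the photoreceptor fate and switches on CRX, and PRDM1 holds such cells back from the bipolar fate. RORB and then NRL and NR2E3 direct the rod fate, while THRB and RXRG pattern cone opsins, and NEUROD1 supports photoreceptor differentiation and survival. Group 3 medulloblastoma is a cerebellar tumour that expresses part of this programme, with OTX2 as one of its defining genes.

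Of the 9 factors, 6 fell in the knockdown: OTX2, CRX, NRL, NEUROD1, RORB and RXRG. PRDM1 and THRB did not pass the test, and NR2E3 was at or under 3 counts in every library. The falls of RORB, RXRG and NEUROD1 were past 2-fold, and those of OTX2, CRX and NRL were smaller. Among all 14673 genes tested by edgeR's quasi-likelihood test, 31.7% passed an adjusted p of 0.05 and 15.9% passed as lower, the background against which 6 of 8 tested factors are to be read. Without control 3 only NEUROD1, RORB and RXRG, 3 of 8, passed as lower, against 9.8% of tested genes. The median log2 change was -0.56 over the 8 tested factors and 0.00 over all tested genes (log2 changes are knockdown over control). In bulk RNA, fewer cells that express a factor and less of its RNA per cell cannot be told apart.

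The libraries held 7765826 to 20035834 gene counts, with knockdown library 1 the shallowest. The first principal component (72.0% of the variance of log2 CPM) separated the groups, with control 1 at -8.00, controls 2 and 3 at -21.9 and -25.9, and the knockdown libraries between 17.0 and 20.7. Control 1 was thus the control nearest to the knockdown. The level of lncMB3 itself was not analysed here, so directions rest on the group labels. Each of the 10 Group 3 markers listed was tested, and 7 passed as lower and 1 as higher, against 15.9% of all tested genes in each direction. The lower ones numbered 3 to 7 with 1 library left out. The list includes OTX2, CRX and NRL, so it is not independent of the factors. Its summed levels were 3244 to 3546 CPM in controls and 3015 to 3115 CPM after knockdown. The largest part was MYC, which did not pass (means of 1177 and 1203 CPM). The cone opsin genes OPN1SW and OPN1LW, markers of mature cones, were at 0 counts in all 6 libraries.

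Proximal promoters of 5 of the 6 factors that fell are printed because these genes fell together, with 250 bases before the RefSeq transcript start (GRCh38.p14), 5′ to 3′. All 9 factors matched RefSeq, with 14 such windows. Capitals mark matches on either strand to 5 short core motifs: TAATCC (bound by OTX2 and CRX), CAGATG and CAGCTG (E-boxes, the class bound by NEUROD1), TGCTGA (a core of MAF-family sites, the class of NRL) and AGGTCA (the core bound by nuclear receptors). No matches overlapped one another.
CRX, chr19:47821687-47821936, plus strand: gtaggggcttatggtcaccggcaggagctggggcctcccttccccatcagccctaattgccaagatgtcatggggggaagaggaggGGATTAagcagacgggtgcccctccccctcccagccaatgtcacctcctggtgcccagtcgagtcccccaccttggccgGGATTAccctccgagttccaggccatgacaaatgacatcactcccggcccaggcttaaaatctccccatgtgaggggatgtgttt
OTX2 upstream start, chr14:56810480-56810729, minus strand: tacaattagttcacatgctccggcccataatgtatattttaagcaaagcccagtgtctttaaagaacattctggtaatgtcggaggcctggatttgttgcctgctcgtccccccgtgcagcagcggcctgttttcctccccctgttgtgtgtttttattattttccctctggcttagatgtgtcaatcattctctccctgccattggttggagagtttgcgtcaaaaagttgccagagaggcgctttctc
NEUROD1, chr2:181680518-181680767, minus strand: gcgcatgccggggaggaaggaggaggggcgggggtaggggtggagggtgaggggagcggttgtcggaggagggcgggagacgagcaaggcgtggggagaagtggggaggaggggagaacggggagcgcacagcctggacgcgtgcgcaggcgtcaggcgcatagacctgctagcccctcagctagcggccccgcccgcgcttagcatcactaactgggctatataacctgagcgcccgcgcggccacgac
RORB upstream start, chr9:74497085-74497334, plus strand: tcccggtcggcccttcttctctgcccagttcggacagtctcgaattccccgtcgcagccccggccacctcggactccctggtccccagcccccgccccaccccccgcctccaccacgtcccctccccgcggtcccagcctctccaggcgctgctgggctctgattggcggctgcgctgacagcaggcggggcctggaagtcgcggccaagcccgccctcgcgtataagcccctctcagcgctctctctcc
RORB downstream start, chr9:74615284-74615533, plus strand: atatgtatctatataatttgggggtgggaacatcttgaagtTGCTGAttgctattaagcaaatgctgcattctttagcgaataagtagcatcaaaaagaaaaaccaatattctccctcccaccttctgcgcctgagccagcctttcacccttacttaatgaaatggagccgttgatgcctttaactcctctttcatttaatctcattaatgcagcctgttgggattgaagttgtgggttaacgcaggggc
RXRG, chr1:165445127-165445376, minus strand: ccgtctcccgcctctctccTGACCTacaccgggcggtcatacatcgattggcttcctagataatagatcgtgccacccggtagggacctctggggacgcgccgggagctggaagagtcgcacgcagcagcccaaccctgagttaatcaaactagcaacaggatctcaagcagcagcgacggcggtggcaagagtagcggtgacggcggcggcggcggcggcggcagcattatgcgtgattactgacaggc
The CRX promoter held TAATCC at 2 places, read on the minus strand, whose first bases lie 164 and 85 bases before the start. It was the only 1 of the 14 windows with this motif, which 5.62% of all 35116 RefSeq windows of this length held. TGCTGA was in 2 of the 14 windows, the downstream start of RORB and a PRDM1 window not shown, against 14.0% of all windows. AGGTCA was in 1, RXRG, against 12.1% of all windows. CAGATG was in 2 windows (12.2% of all), 1 of NRL and 1 of THRB, and CAGCTG in 2 (14.0% of all), the downstream start of OTX2 and NR2E3. These windows, like the other window of NRL, are not printed. These are matches of letters, and the counts are per gene, so the use of the upstream or the downstream start was not measured.

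Per unit of transcript length, OTX2 stood far above the other factors. Levels were length-scaled to TPM with the longest GENCODE basic transcript of each gene. OTX2 was at 679 ± 55.0 TPM in controls (SD, n = 3), rank 174 of 58337 genes with a length. NEUROD1 (27.7 ± 2.7 TPM) and CRX (26.4 ± 6.08 TPM) followed, and their control libraries overlapped. NRL came next at 7.24 ± 1.58 TPM, apart from its neighbours in the order. RXRG (2.05 ± 0.279 TPM), RORB (1.52 TPM, 0.946 to 1.92), PRDM1 (1.17 ± 0.146 TPM) and THRB (0.850 ± 0.229 TPM) formed a low group in which each overlapped the next. In the knockdown the order of TPM levels differed: CRX (18.4 ± 0.701 TPM) lay above NEUROD1 (12.7 ± 1.47 TPM) without overlap, and RXRG (0.810 ± 0.0318 TPM) lay below PRDM1 (1.45 ± 0.266 TPM) instead of above it. RORB, at 0.469 ± 0.0963 TPM, became the lowest factor apart from NR2E3. With the merged exon length of each gene in place of the longest transcript, both orders of the means were the same.

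**Figure D1:**
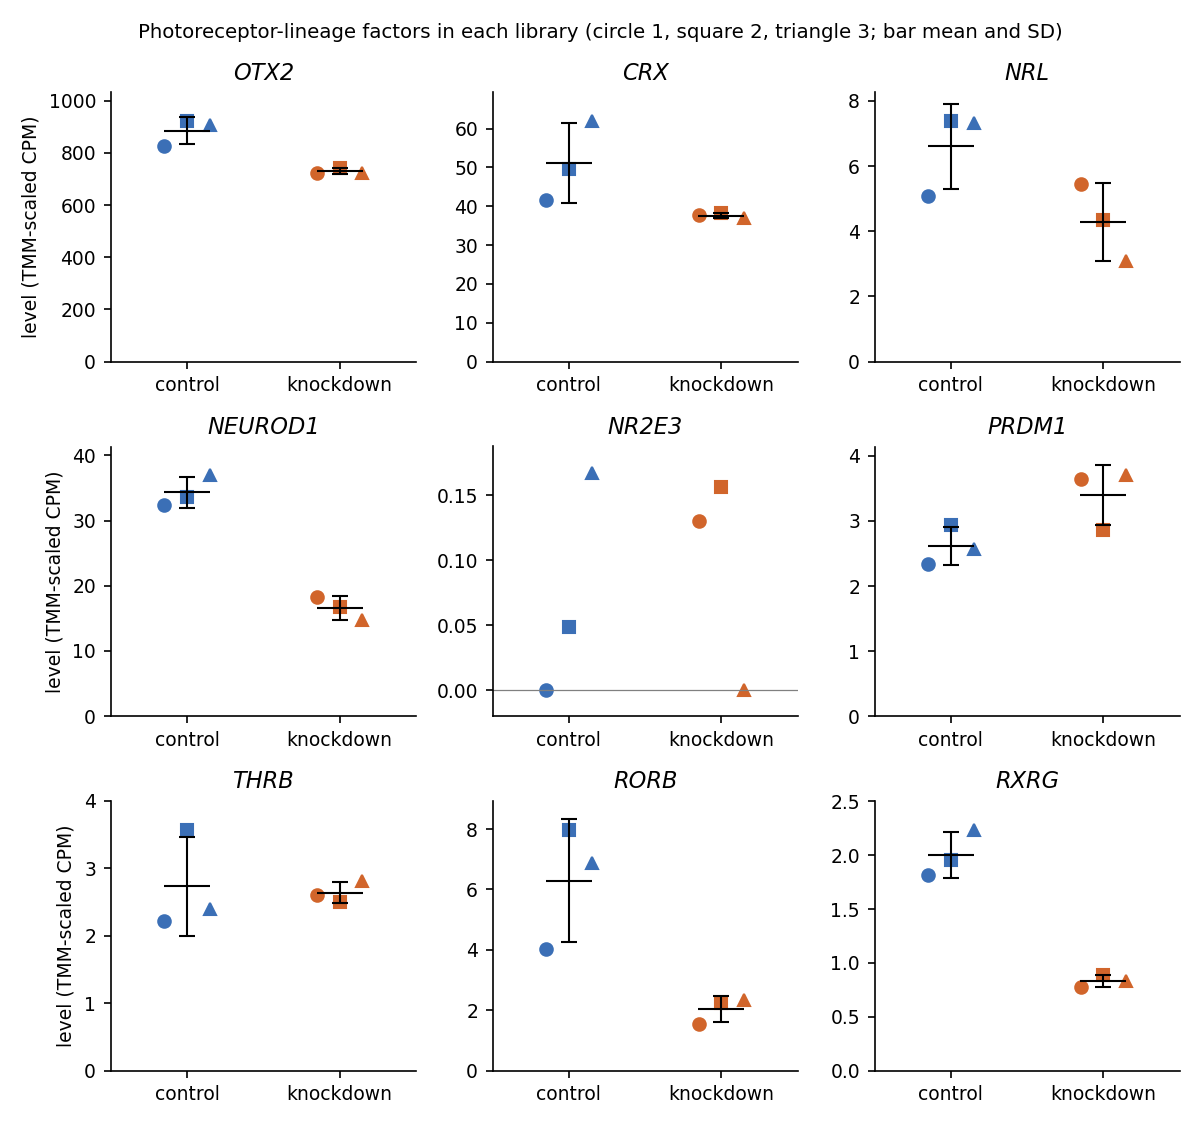
Level of each factor in every library, in TMM-scaled CPM (y axis, a separate linear scale for each gene) for control (blue) and knockdown (orange) libraries, with the mean and SD of 3 as black bars; NR2E3, at 0 to 3 counts, has no bar. The knockdown libraries lie below all controls for OTX2, CRX, NEUROD1, RORB and RXRG.

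OTX2 and CRX, the homeodomain factors at the head of the hierarchy, showed small falls. OTX2 (ENSG00000165588, chromosome 14, 56799905 to 56810479, minus strand) was at 826, 922 and 906 CPM in controls 1 to 3 and at 723, 742 and 723 CPM in knockdown libraries 1 to 3. All knockdown libraries lay below all controls, as in 23.1% of tested genes, and close to each other. The log2 change was -0.28 ± 0.08 (SE, adjusted p = 0.0202), from 885 ± 51.5 to 729 ± 11.2 CPM (SD, n = 3). CRX (ENSG00000105392, chromosome 19, 47819779 to 47843330, plus strand), which OTX2 activates in photoreceptor precursors, was at 41.5, 49.6 and 62.0 CPM in the SCR libraries and 37.7, 38.2 and 36.9 CPM after knockdown. Its controls were spread widely while its knockdown libraries were nearly equal, and control 1 lay only just above them. The log2 change of CRX was -0.44 ± 0.12 (adjusted p = 0.0132). Both calls depend on single libraries. The adjusted p of OTX2 was 0.107 with control 2 left out and 0.0689 with control 3 left out. It was 0.0762 and 0.062 with knockdown library 1 or 3 left out. Its log2 change stayed between -0.32 and -0.25 over the 6 libraries left out in turn. For CRX the call was lost without control 3 (adjusted p = 0.0743, log2 change -0.28).

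NEUROD1 had the firmest fall of the 9. This basic helix-loop-helix factor (ENSG00000162992, chromosome 2, 181673088 to 181680876, minus strand) was at 32.4, 33.6 and 36.9 CPM in the SCR libraries and 18.3, 16.7 and 14.7 CPM after knockdown. The groups were well apart, and the spread within each was small beside the gap between them. The fall was 2.09-fold (log2 change -1.07 ± 0.11, adjusted p = 3.26e-05), rank 363 of the tested genes from the lowest log2 change. It held with every library left out in turn (log2 change -1.12 to -0.99, adjusted p 4.73e-05 to 0.000591). CERKL, on the same strand, shares 236 exonic bases with NEUROD1, 7.13% of the exonic bases of NEUROD1. CERKL was at 0.104 to 0.95 CPM, far below NEUROD1 in each library.

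RORB, an orphan nuclear receptor needed for rod development and upstream of NRL, had the largest fall of the 9. It (ENSG00000198963, chromosome 9, 74497365 to 74693177, plus strand) was at 4.04, 7.97 and 6.87 CPM in the SCR libraries and 1.56, 2.24 and 2.35 CPM after knockdown. Control 1 was the lowest control but still stood above every knockdown library. These levels rest on 69, 163 and 123 control counts and 12, 43 and 45 knockdown counts. The fall was 2.95-fold (log2 change -1.56 ± 0.25, adjusted p = 0.000602), rank 92 of the tested genes from the lowest log2 change. With 1 library left out it ranged from -1.79 without control 1 to -1.36 without control 2, and the adjusted p was at most 0.00461. The antisense gene RORB-AS1 overlaps the start of RORB, shares 0 exonic bases with it and was at 0 to 2 counts in each library. A relative, RORA, also fell, from 5.09, 6.36 and 8.05 CPM in the controls to 2.73, 2.71 and 4.43 CPM after knockdown (log2 change -0.94 ± 0.22, adjusted p = 0.00596).

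RXRG, a retinoid X receptor of cone precursors, fell as well. It (ENSG00000143171, chromosome 1, 165400917 to 165445355, minus strand) was at 1.81, 1.96 and 2.24 CPM in the SCR libraries and 0.780, 0.887 and 0.834 CPM after knockdown. The groups did not overlap and each was tight, although the knockdown values rest on only 6, 17 and 16 counts. The fall was 2.36-fold (log2 change -1.24 ± 0.29, adjusted p = 0.00503) and was called with each library left out in turn (adjusted p at most 0.0293). The other retinoid X receptors were far more abundant, RXRA at 138 ± 6.65 and RXRB at 46.0 ± 2.92 TPM in controls, against 2.05 TPM for RXRG. With merged exon lengths the order of these 2 was reversed, RXRA at 35.35 and RXRB at 52.65 TPM, against 2.64 TPM for RXRG. Neither was called (log2 change -0.12, adjusted p = 0.276 for RXRA; -0.13, adjusted p = 0.241 for RXRB).

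NRL, the leucine-zipper factor that sets the rod fate, fell by an amount that single libraries decide. It (ENSG00000129535, chromosome 14, 24080107 to 24115014, minus strand) was at 5.09, 7.38 and 7.32 CPM in the SCR libraries and 5.46, 4.33 and 3.08 CPM after knockdown. Knockdown library 1 lay above control 1, so the groups overlapped. The log2 change was -0.69 ± 0.21 (adjusted p = 0.0226). Leaving out control 2 gave an adjusted p of 0.0988 (log2 change -0.60) and leaving out control 3 one of 0.0808 (-0.61). Leaving out knockdown library 3 gave 0.122 (-0.49). The span of NRL holds all of PCK2 on the opposite strand. PCK2, an enzyme of gluconeogenesis, was at 101, 205 and 168 CPM in the SCR libraries and 40.3, 48.3 and 36.4 CPM after knockdown. In GENCODE 29 the exons of NRL and PCK2 share 0 bases. DCAF11, also on the opposite strand, shares 293 exonic bases with NRL (9.41% of the exonic bases of NRL). DCAF11 went from 66.6 ± 1.11 to 58.3 ± 3.64 CPM (log2 change -0.19, adjusted p = 0.102). Details of strand in the counting were not given in the sources used here. What these neighbours add to the NRL counts was not tested.

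PRDM1 and THRB did not pass the test. PRDM1, a zinc-finger repressor (ENSG00000057657, chromosome 6, 106086320 to 106109939, plus strand), was at 2.34, 2.93 and 2.57 CPM in the SCR libraries and 3.64, 2.87 and 3.70 CPM after knockdown. Its knockdown library 2 lay within the controls and the other 2 above them (log2 change 0.36 ± 0.21, adjusted p = 0.211). THRB, a thyroid hormone receptor (ENSG00000151090, chromosome 3, 24117153 to 24495756, minus strand), was at 2.22, 3.57 and 2.40 CPM in the SCR libraries and 2.60, 2.50 and 2.81 CPM after knockdown. All its knockdown libraries lay inside the range of the controls (log2 change -0.06 ± 0.24, adjusted p = 0.879). These genes had 20 to 73 counts a library. For THRB, a log2 change of the size seen for OTX2 lies within 1 SE of its value. THRA, the other thyroid hormone receptor, was at 25.0 ± 1.60 TPM in controls against 0.850 TPM for THRB and was not called (log2 change 0.14, adjusted p = 0.238).

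NR2E3, the nuclear receptor that represses cone genes in rods (ENSG00000278570, chromosome 15, 71792638 to 71818259, plus strand), had 0, 1 and 3 control counts and 1, 3 and 0 knockdown counts. It reached the filter level of 0.546 CPM in 0 of 6 libraries, where the other 8 reached it in all 6. A floor of 3 counts corresponds to 0.15 to 0.386 CPM in these libraries, so no difference was detectable at this depth.

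**Figure D2:**
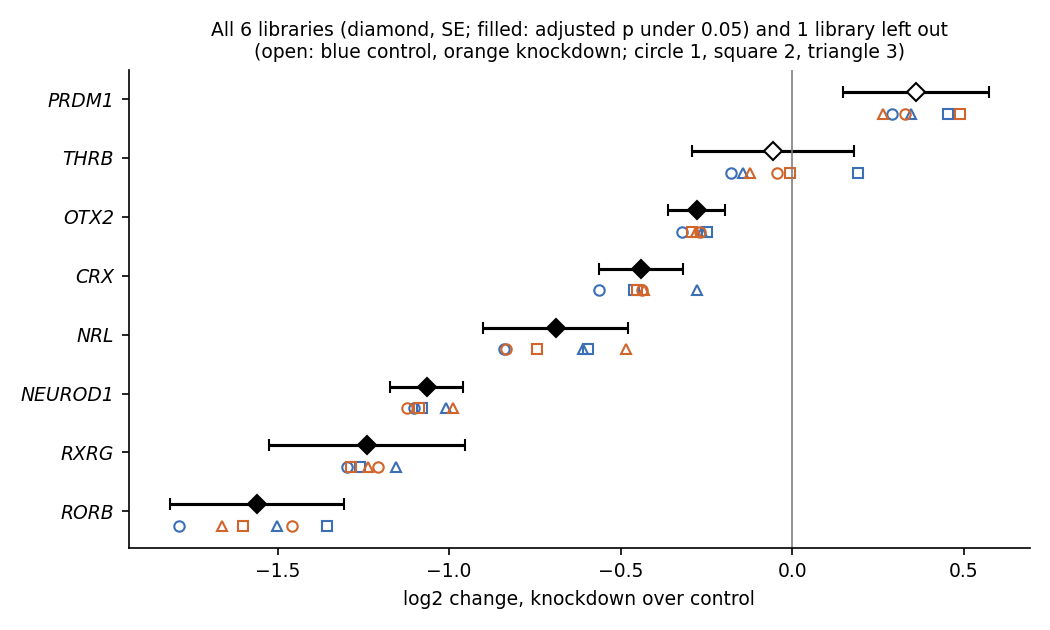
Log2 change (x axis, knockdown over control) of the 8 tested factors (y axis), as black diamonds with SE, filled where the adjusted p is under 0.05; open symbols give the change with 1 library left out. RORB, RXRG and NEUROD1 stay at -0.99 or lower throughout with 1 library left out, whereas THRB changes sign without control 2.

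The ratio of each factor to OTX2 within a library does not depend on how libraries are scaled. NEUROD1 counts were 3.92%, 3.65% and 4.08% of OTX2 counts in the SCR libraries and 2.54%, 2.26% and 2.03% after knockdown, with no overlap. RORB counts were 0.489%, 0.864% and 0.759% of OTX2 counts in the SCR libraries and 0.216%, 0.302% and 0.325% after knockdown. RXRG counts were 0.220%, 0.212% and 0.247% in the SCR libraries and 0.108%, 0.12% and 0.115%. PRDM1 had the opposite direction, with 0.283%, 0.318% and 0.284% in the SCR libraries and 0.504%, 0.387% and 0.512% after knockdown. In these 4 ratios the groups were apart, and an exact 2-sided permutation test gave p = 0.1, the smallest that 3 against 3 libraries allow (0.175 after Benjamini-Hochberg adjustment over 7 ratios). OTX2 itself fell, which raises every ratio in the knockdown, and in CPM the groups of PRDM1 overlapped. The share of all genes whose ratio to OTX2 sets the groups apart was not computed. The CRX ratio went from 5.02%, 5.38% and 6.84% to 5.22%, 5.15% and 5.11% and overlapped (exact permutation p = 0.4, adjusted 0.4). NRL (exact permutation p = 0.2, adjusted 0.28) and THRB (exact permutation p = 0.3, adjusted 0.35) overlapped as well.

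Within the controls the factors shared a pattern. Control 1 was the lowest control for all 8 tested factors, including PRDM1 and THRB. It was also the lowest control in 38.6% of all tested genes and in 79.0% of the 2329 genes called lower. 

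**Figure D3:**
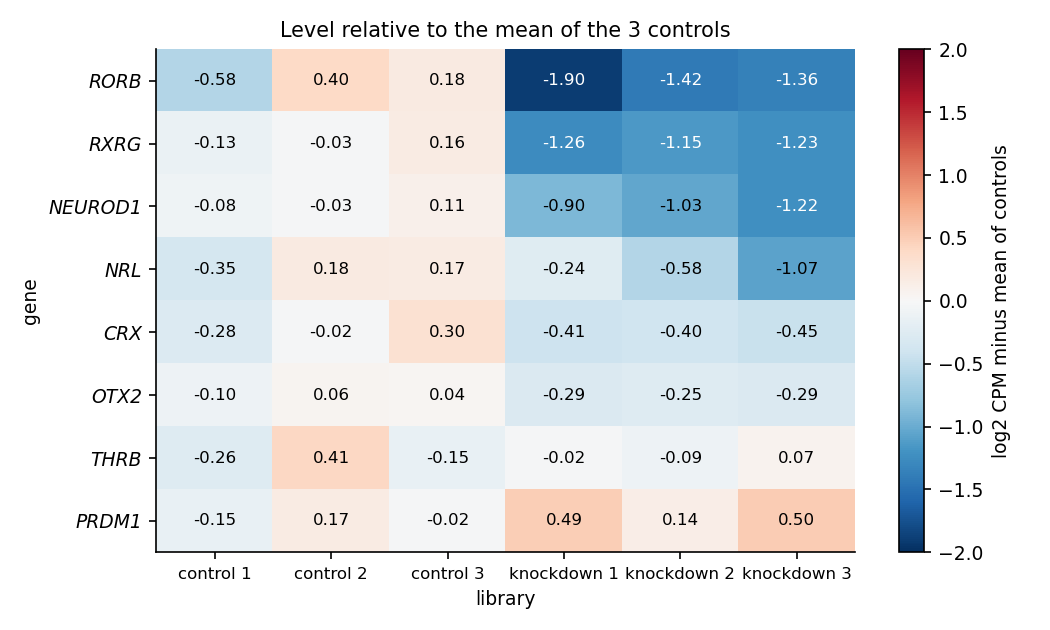
Log2 CPM of each tested factor in each library minus the mean of the 3 controls (colour and printed value; rows are genes, columns libraries). Control 1 is negative in every row, and the knockdown columns are most negative for RORB, RXRG and NEUROD1.

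Neighbouring and related genes were measured beside the factors. OTX2-AS1, a long non-coding gene that starts 2704 bases upstream of OTX2 on the opposite strand, was at 4.04, 5.38 and 5.42 CPM in the SCR libraries and 2.99, 2.66 and 2.35 CPM after knockdown (log2 change -0.92 ± 0.20, adjusted p = 0.00349). Its groups did not overlap. Among 21 relatives in the same protein families 16 were tested, 2 fell and 2 rose (median log2 change 0.06). OTX1, the paralog of OTX2, fell from 2.72 ± 0.289 to 1.44 ± 0.288 CPM (log2 change -0.89, adjusted p = 0.0141), and RORA was the other fall. MAFG, a small MAF protein, rose from 58.2 ± 3.05 to 74.4 ± 6.89 CPM (adjusted p = 0.00893), and PRDM4 from 29.1 ± 1.55 to 36.0 ± 2.98 CPM (adjusted p = 0.0235). These counts are near or below the 15.9% of all tested genes called in each direction and show nothing particular to the relatives. PRDM4 was not called with upper-quartile scaling or without control 2, control 3 or knockdown library 3, and MAFG was not called without knockdown library 3. OTX1 was not called without control 2 or knockdown library 3, while RORA was called with each library left out. Without knockdown library 2, 3 relatives rose. ATG5, which overlaps PRDM1 on the opposite strand with 0 shared exonic bases, rose from 35.5 ± 6.22 to 52.3 ± 4.15 CPM (adjusted p = 0.00256).

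Factors that act upstream of or beside the 9 were called about as often as genes in general. Of 28 such genes 18 were tested, 4 fell and 2 rose (median log2 change -0.11), against 31.7% of all tested genes called and 15.9% in each direction. FOXN4, a factor of retinal progenitors, went from 2.29 ± 0.523 to 1.04 ± 0.462 CPM (adjusted p = 0.00965), and NR2F1, an orphan nuclear receptor, from 1.07 ± 0.323 to 0.400 ± 0.132 CPM (adjusted p = 0.0216). MEF2C and MEF2D, MADS-box factors, were the other falls. SAMD11, a transcriptional repressor of rods, rose from 97.3 ± 6.18 to 130.0 ± 8.19 CPM (adjusted p = 0.00256), and NR1D1, a clock repressor that works with NR2E3 and CRX, from 12.3 ± 2.34 to 19.3 ± 1.51 CPM (adjusted p = 0.0027). NR1D1 overlaps the end of THRA on the opposite strand, so reads of the pair may be hard to separate. The rises numbered 2 or 3 with 1 library left out. The falls numbered 3 without control 1 and 1 without control 2, control 3 or knockdown library 2. They numbered 2 without knockdown library 1 or 3. Of the eye-field factors, LHX2 was at 12.1 ± 0.370 CPM in controls and 11.4 ± 0.739 CPM after knockdown (adjusted p = 0.627), and SIX3 was at 0.632 ± 0.0719 and 0.608 ± 0.216 CPM (adjusted p = 0.819). SIX6 had 4 to 9 counts a library, RAX and PAX6 had at most 1 and 2, and the neural factor SOX2 had 0.

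Among partners and targets of the nuclear receptors more genes fell than rose. Of 17 listed 14 were tested, 8 fell and 1 rose (median log2 change -0.28), against 15.9% of all tested genes in each direction. RLE scaling gave 6 falls and upper-quartile scaling 9. KLF9, a thyroid-hormone-responsive Krüppel-like factor, was at 40.5, 52.1 and 47.7 CPM in the SCR libraries and 27.7, 23.6 and 25.4 CPM after knockdown (adjusted p = 0.000108). CYP26B1, a retinoic-acid-degrading enzyme, went from 0.993 ± 0.196 to 0.235 ± 0.0942 CPM (adjusted p = 0.00383). RARB, a retinoic acid receptor and itself a retinoid target, went from 4.55 ± 0.659 to 2.57 ± 0.602 CPM (adjusted p = 0.00785), and NCOA2, a coactivator, from 31.4 ± 1.29 to 22.9 ± 2.73 CPM (adjusted p = 0.00454). MED1, a Mediator subunit, was the rise, a call lost without control 2, control 3, knockdown library 1 or knockdown library 3. The falls numbered 4 without control 3 and 6 without any 1 of control 2 and the 3 knockdown libraries, and 8 without control 1.

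Among photoreceptor genes, which the factors regulate in the retina, those called with all 6 libraries were lower. These lists overlap with photoreceptor genes already known to be lower in these libraries and are not independent evidence. Their counts, too, stand beside 15.9% of all tested genes called lower. Of 14 rod genes 8 were tested, with 3 falls and 0 rises (median log2 change -0.26). The rod phosphodiesterase subunit PDE6A was at 6.73, 7.92 and 7.94 CPM in the SCR libraries and 1.30, 2.87 and 3.02 CPM after knockdown (adjusted p = 0.000221), whereas its partner PDE6B went from 15.4 ± 1.5 to 14.1 ± 1.67 CPM (adjusted p = 0.455). SLC24A1, the rod exchanger, and CNGB1, a channel subunit, were the other falls. Of 15 cone genes 4 were tested, and GNB3, PDE6H and GNGT2 fell while CNGB3 was not called. GNB3, a cone transducin subunit, was at 62.8, 91.7 and 108 CPM in the SCR libraries and 26.8, 31.6 and 26.1 CPM after knockdown (adjusted p = 3.26e-05). Of 26 genes of both photoreceptor types 11 were tested, with 8 falls and 0 rises (median log2 change -0.81). RGS9BP, an anchor of the transducin GTPase activator, went from 22.4 ± 5.23 to 11.4 ± 0.709 CPM (adjusted p = 0.000455), and TULP1, a photoreceptor trafficking protein, from 22.1 ± 4.52 to 10.6 ± 2.60 CPM (adjusted p = 0.000675). Leaving out 1 library moved the photoreceptor counts to 2 or 3 rod, 3 or 4 cone and 7 or 8 shared falls. The only rise was 1 rod gene, called without control 1, control 2, control 3 or knockdown library 1. Among rod and cone genes too low to be tested, SAG and PDE6C lay above all controls after knockdown, and the others overlapped or were at 0. SAG went from 0.205 ± 0.0988 to 0.799 ± 0.263 CPM and PDE6C from 0.231 ± 0.0592 to 0.469 ± 0.0515 CPM, from at most 20 counts a library. The rod falls numbered 2 without control 2 or knockdown library 3.

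OTX2 and CRX also act in pineal and pigment cells. The counts of both lists stand beside 15.9% of all tested genes called in each direction. Among 10 pineal genes 5 were tested, with 2 falls and 1 rise. AANAT, the rate-limiting enzyme of melatonin synthesis and a CRX target, was at 7.85, 8.27 and 8.83 CPM in the SCR libraries and 4.68, 5.06 and 3.70 CPM after knockdown (log2 change -0.90 ± 0.16, adjusted p = 0.00102). LHX4, a LIM homeodomain factor, fell from 1.82 ± 1.35 to 0.434 ± 0.0790 CPM (adjusted p = 0.00877), a call lost without control 3, and ISL1, another LIM factor, rose from 3.45 ± 0.161 to 5.79 ± 0.278 CPM (adjusted p = 0.00406). Of 13 pigment-cell genes 7 were tested, with 4 falls (DCT, RPE65, BEST1 and OCA2) and 0 rises (median log2 change -0.55), and 3 falls without control 2. RPE65, the retinoid isomerase, was at 17.6, 19.9 and 16.9 CPM in the SCR libraries and 10.5, 9.29 and 11.7 CPM after knockdown (adjusted p = 0.000494), while MITF, the partner of OTX2 in pigment cells, was at 12.7 ± 0.560 and 13.1 ± 1.57 CPM (adjusted p = 0.895).

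**Figure D4:**
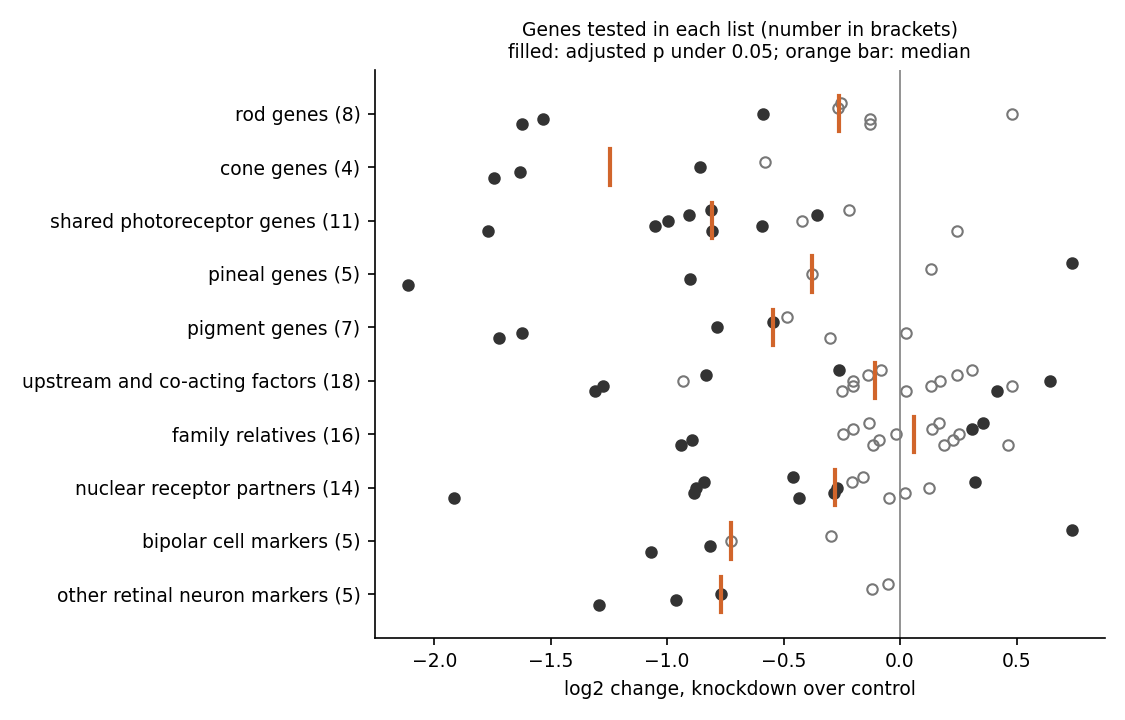
Log2 change (x axis, knockdown over control) of the tested genes of 10 lists (y axis, number tested in brackets), filled where the adjusted p is under 0.05, with the median as an orange bar. Cone and shared photoreceptor genes have medians of -1.24 and -0.81, and family relatives one of 0.06.

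Markers of other cell types were also lower in places. With so few genes tested in each list, the counts are to be read against 15.9% of all tested genes called in each direction. Among 10 bipolar markers 5 were tested, with 2 falls, TRPM1 among them, and 1 rise (ISL1). The falls numbered 0 to 2 with 1 library left out. The summed levels were 38.1 to 42.9 CPM in controls and 29 to 38.0 CPM after knockdown. GRM6 was at 0 in all libraries. The call of TRPM1 (adjusted p = 0.0349) held with knockdown library 2 left out and was lost with any other single library left out. Of 12 markers of other retinal neurons 5 were tested, with 3 falls (SLC6A9, CALB1 and PROX1) and summed levels of 76.9 to 92.9 against 51.1 to 55.7 CPM, while POU4F2, PTF1A, LHX1 and TFAP2B were at 0. Of 12 glial markers 5 were tested, with 1 fall (GLUL) and 1 rise (SLC1A3, lost with upper-quartile scaling and without any 1 of the 3 controls or knockdown library 3) and summed levels of 3882 to 4530 against 3012 to 3079 CPM, mostly GLUL, with MBP and MOG at 0. Of 16 mesenchymal, endothelial, immune and epithelial markers 5 were tested, with 3 falls (KRT8, COL1A1 and DCN) and summed levels of 86 to 103 against 63.1 to 68.2 CPM, with COL3A1, CDH5, AIF1 and CD3E at 0. The 3 falls became 1 without control 2 or knockdown library 3 and 2 without control 1, control 3 or knockdown library 1. The part of these markers in the falls of the 9 factors was not tested.

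Genes whose log2 CPM followed a factor most closely over the 6 libraries were found by Pearson correlation among 10839 genes with a mean of at least 5 CPM. For OTX2 they were PLCD3 (r = 0.999), SH2B1 and SLC1A4. For CRX they were MCHR1 (r = 0.993), BNIP3 and PFKFB4, and for NEUROD1 they were BTD (r = 0.998), TP73 and WDTC1. These points share the difference between the groups, and 649, 114 and 554 genes exceeded r = 0.95 with OTX2, CRX and NEUROD1. The likeness therefore describes these libraries and singles out no gene.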

How the data were processed

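RNA-seq counts of 3 control and 3 knockdown libraries were used. The deposited values are unscaled whole-number counts per Ensembl gene (60708 rows a library). Trim Galore 0.6.4, STAR 2.7.9a, RSEM and GRCh38.p13 are named in the submitters' processing notes, with no role. If the counts are RSEM estimates, they were rounded before the authors deposited them. Annotation and strand setting were not given in the sources used here. The 44 pseudoautosomal Y copies were added to their X copies. Symbols were found for 60463 of 60664 genes, and coordinates for 58396 in GENCODE 29 (GRCh38, 1-based).

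Groups were compared with edgeR 4.0.16 in R 4.3.3: filterByExpr, TMM scaling, then a quasi-likelihood F test with no covariate, 2-sided, with Benjamini-Hochberg adjustment over 14673 genes and a threshold of 0.05. Each SE is approximate, derived from the F statistic as log2 change over root F. CPM uses TMM-scaled library sizes. For correlations 0.5 counts were added before the log. Each library was counted as its own replicate. Libraries of a group differed beyond sampling noise (chi-square of 2.73 to 16.5 for each degree of freedom), which does not show that they came from separate cultures. The fit was tested on simulated counts.

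The members and lists were chosen with earlier results of these data known. The genes named were the 9 factors, genes that overlap them, up to 4 genes per list with the smallest adjusted p, and the 3 genes most like OTX2, CRX and NEUROD1. Further names, which complete small counts or give a partner or relative of a named gene, were chosen after their values were seen. Alternatives were RLE and upper-quartile scaling, DESeq2 1.42.0, limma-voom (limma 3.58.1), no filter, at least 1 CPM in 3 libraries, a replicate block, an adjusted p under 0.01 and leaving out each library. List counts under the library and scaling alternatives were chosen after seeing the data. Matplotlib 3.10.9 drew the figures. Some list genes are not reported here.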

Additional observations from a re-analysis of the deposited data

How the results depend on the processing

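The falls of NEUROD1, RORB and RXRG were called under all 13 alternatives run for each, with log2 changes of -1.12 to -0.99, -1.79 to -1.36 and -1.30 to -1.16. OTX2, CRX and NRL were called under each of the 7 alternatives that kept all 6 libraries, with adjusted p-values of at most 0.0349, 0.0207 and 0.03, and lost calls only when a library was left out, in 4, 1 and 3 of 6 cases. The number of factors called lower ranged from 3 to 6 with 1 library left out and was 6 under those 7 alternatives, and 0 were called higher in any of the 13. At an adjusted p under 0.01 only NEUROD1, RORB and RXRG remained, 3 of the 6. PRDM1 was not called under any of the 13 (log2 change 0.26 to 0.49). THRB ranged from -0.18 to 0.19 with 1 library left out and was positive only without control 2 (adjusted p = 0.651); the cause was not tested. With no filter NR2E3 entered the test at a log2 change of 0.25 (adjusted p = 0.929), from at most 3 counts a library.

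Over all genes 4657 were called, 2328 higher and 2329 lower. Leaving out 1 library gave 2704 to 5114 calls (1264 to 2604 higher, 1440 to 2510 lower), with the fewest without control 2 and 2891 without control 3. An adjusted p under 0.01 gave 2459. Upper-quartile scaling gave 1773 higher and 2803 lower. The replicate block gave 4742 calls and changed no call among the factors. The labels number the libraries of both groups 1 to 3, but deviations of same-numbered libraries from their group means correlated at -0.13, 0.12 and -0.002 over 10990 genes, so the numbers were not taken as pairs. Depth limits NR2E3, and RXRG and RORB in knockdown library 1, with 6 and 12 counts.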
